A study of Mus musculus with 8 samples.

Results

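The 3 RBFOX splicing factor genes and 5 genes whose exons the study followed as RBFOX2 targets were examined in liver RNA of fructose-fed mice. The 8 genes were Rbfox2, Rbfox1, Rbfox3, Scarb1, Pla2g6, Numb, Sec31a and Osbpl9. They were found by symbol among 46078 Ensembl genes of a read count table, and all 8 passed the filter on low counts that left 14654 genes for testing. WT livers (n = 5 mice) came from mice with loxP sites in both copies of Rbfox2 and no Cre recombinase (Alb_cre- Rbfox2 LoxP/LoxP), which the labels call wild-type. Rbfox2 KO livers (n = 3 mice) came from mice with the same loxP alleles and a Cre recombinase driven by the albumin promoter (Alb_cre+ Rbfox2 LoxP/LoxP). Both groups drank water with 30% (w/v) fructose for 22 weeks, entered the diet as young adults by the study's methods and were fasted before the liver was taken. The methods give male mice unless stated otherwise, and the labels give no sex. The albumin promoter directs Cre to hepatocytes and is not active in endothelial, Kupffer or stellate cells, and deletion was not measured here by cell type.

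RBFOX proteins bind the RNA word GCAUG, usually in introns. As a rule, binding downstream of a cassette exon favours its inclusion and binding upstream favours its skipping. RBFOX1 is best known from neurons, heart and skeletal muscle and RBFOX3, also called NeuN, from neurons, whereas RBFOX2 is expressed in many tissues. Among the targets, Scarb1 encodes the high-density lipoprotein (HDL) receptor SR-BI, Pla2g6 a calcium-independent phospholipase A2, Numb an endocytic adaptor that also restrains Notch signalling, Sec31a an outer-coat subunit of COPII vesicles and Osbpl9 an oxysterol-binding protein-related lipid transfer protein. Exon use changes which protein a gene makes and can leave its total RNA as it was. Read counts per gene measure only that total, and exon inclusion was not analysed here.

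Alternative exons of 4 target genes are shown, those of Scarb1, Numb and Sec31a because the study followed them as RBFOX2 targets. The Pla2g6 exon shown was not matched to the exon the study followed. The counts below describe the genes around these exons. Sequences are from the GENCODE M21 transcripts of GRCm38, written 5′ to 3′ on the sense strand, and all 4 genes lie on the minus strand. Exon numbers follow the named transcript, and capitals mark a stop codon.
Scarb1 exon 12 (Scarb1-201): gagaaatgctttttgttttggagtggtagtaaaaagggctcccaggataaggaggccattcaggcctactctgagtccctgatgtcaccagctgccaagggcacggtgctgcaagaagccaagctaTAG
Numb exon 3 (Numb-207): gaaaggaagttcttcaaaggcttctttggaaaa
Numb exon 9 (Numb-207): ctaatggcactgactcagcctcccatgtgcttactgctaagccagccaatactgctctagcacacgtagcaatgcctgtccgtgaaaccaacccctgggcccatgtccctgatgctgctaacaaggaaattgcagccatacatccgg
Sec31a exon 23 (Sec31a-201): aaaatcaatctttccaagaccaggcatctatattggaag
Pla2g6 exon 9 (Pla2g6-210): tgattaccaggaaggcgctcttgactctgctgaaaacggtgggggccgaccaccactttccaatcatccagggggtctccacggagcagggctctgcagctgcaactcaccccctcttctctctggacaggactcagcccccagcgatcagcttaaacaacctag

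Scarb1 exon 12 spans chr5:125281105-125281233, and its 129 bases end in the stop codon of Scarb1-201. Transcripts that skip it encode SR-BII, a receptor with another cytoplasmic tail. Numb exon 3 at chr12:83825259-83825291 has 33 bases and lies in the part that encodes the phosphotyrosine-binding domain. Numb exon 9 at chr12:83797197-83797343 has 147 bases and lies in the part that encodes the proline-rich region. Sec31a exon 23 at chr5:100369596-100369634 has 39 bases. The Pla2g6 exon at chr15:79304305-79304469 has 165 bases. It is a cassette exon in the annotation, and whether it is the one the study numbers differently was not resolved. All 5 exons are annotated both as included and as spliced around, in 2 to 5 and in 2 to 5 transcripts.

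The 5 exons share a length divisible by 3. For the exons of Numb, Sec31a and Pla2g6, skipping a length of this kind leaves the downstream reading frame in place, whereas Scarb1 exon 12 ends the coding sequence of Scarb1-201. Among 165262 annotated internal coding exons, 41.1% had such a length. The exons were searched for GCATG, the DNA spelling of the RBFOX word, on both strands, and 0 of 5 held it on either. On the sense strand, 12.2% of all internal coding exons hold it, and between 2.31% and 16.2% of those with the same length as one of the 5. This concerns only the letters inside the exons. The introns around them were not examined.

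Total counts ran from 24829693 to 37823155 per sample, and 3 counts, taken as a detection floor, equalled 0.0839 to 0.118 CPM, the unit for reads scaled to library size. CPM values here include TMM factors (trimmed means of log ratios between samples), which correct for a few very abundant transcripts. All 6 hepatocyte markers were detected, and their summed level ran from 61336 to 67950 CPM in WT and from 55434 to 69552 CPM in Rbfox2 KO livers, led by Alb. Rbfox2 KO 1 stood apart by 378 CPM over 7 pancreatic acinar genes, against 8.64 CPM in WT 1 and at most 0.266 CPM in the other 6 samples. Skeletal muscle genes (6 of 6 detected) summed to 140, 160 and 236 CPM in Rbfox2 KO 1, WT 4 and WT 5 and to at most 29.7 CPM elsewhere. No 2 samples of a group agreed within sampling noise. Each sample is taken as 1 mouse, as the labels number them.

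Rbfox2 (ENSMUSG00000033565) is the deleted gene, with 8140 bases of annotated exons at chromosome 15, 77078990 to 77307004, of GRCm38. Its level in the WT livers was 13.96, 20.5, 19.0, 17.9 and 23.2 CPM in WT 1 to 5, from 378, 635, 542, 513 and 783 reads. In the Rbfox2 KO livers it was 6.84, 8.61 and 12.4 CPM, from 218, 219 and 443 reads. The groups did not overlap, and the narrowest gap, between Rbfox2 KO 3 and WT 1, was 1.57 CPM. Against the WT mean, the Rbfox2 KO livers kept 36.1%, 45.5% and 65.5% of the Rbfox2 RNA level. The study reported no detectable RBFOX2 protein by western blot in the liver of its knockout mice. Protein was not measured here.

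WT livers averaged 18.9 ± 3.39 CPM of Rbfox2 (SD, n = 5), and Rbfox2 KO livers averaged 9.28 ± 2.84 CPM (SD, n = 3). In the quasi-likelihood test of edgeR the log2 fold change was -1.03 ± 0.21 (SE), and its 95% interval ran from -1.49 to -0.56, or 0.356 to 0.678 times WT. The Benjamini-Hochberg adjusted edgeR p over all tested genes was 0.328, with an unadjusted p of 5.98e-04. No gene of the 14654 passed an adjusted p of 0.05 in edgeR (0%), 0 did so in limma-voom (0%), and 59 (0.403%) did so in DESeq2. Unadjusted p values under 0.05 numbered 694 in edgeR (4.74%), 655 in limma-voom and 722 in DESeq2. Rbfox2 was among the genes DESeq2 called, with a log2 fold change of -1.03 and an adjusted p of 0.0019, and ranked 24 by p in edgeR. Without Rbfox2 KO 1, the liver with the highest pancreatic gene sum, the log2 fold change of Rbfox2 was -0.85 and the adjusted edgeR p 0.772. A Rbfox2 KO group wholly below the WT group was found for 266 of 14654 genes (1.82%).

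How far the remaining Rbfox2 reads come from other cells or from transcript parts outside the deleted piece cannot be told from counts per gene. In whole liver, fewer cells of a type and less RNA per cell cannot be told apart either. The 8 sinusoidal endothelial markers, all detected and led by Clec4g, summed to 143, 150 and 164 CPM in Rbfox2 KO 1 to 3, which ranks these livers as Rbfox2 did. In WT they summed to 145, 151, 150, 151 and 166 CPM, and here too WT 1 was lowest and WT 5 highest, as for Rbfox2. The hepatocyte marker sums ranked the Rbfox2 KO livers in the same way, at 55434, 65714 and 69552 CPM in Rbfox2 KO 1 to 3. In WT the hepatocyte sum was lowest in WT 3 and highest in WT 4, unlike Rbfox2. Of all tested genes, 22.9% ranked the Rbfox2 KO livers in this order, so the ranking is not particular to endothelial genes. The part of the endothelial genes in the Rbfox2 level was not tested. The summed markers of Kupffer cells (6 of 6 detected) ran from 194 to 224 CPM in WT and from 194 to 257 CPM in Rbfox2 KO. Those of stellate cells (6 of 6) ran from 145 to 195 CPM and from 136 to 227 CPM, those of bile duct cells (5 of 5) from 20.5 to 32.2 CPM and from 24.9 to 31.8 CPM, and those of lymphocytes (4 of 4) from 6.64 to 15.9 CPM and from 6.88 to 11.5 CPM. In TMM-scaled CPM, Rbfox2 KO 2 was lowest of its group in all 4 of these sums and in the middle for Rbfox2.

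Rbfox1 (ENSMUSG00000008658, chromosome 16, 5885355 to 7411526, plus strand) was at the edge of detection. WT 1 to 5 had 4, 2, 2, 15 and 16 reads, and Rbfox2 KO 1 to 3 had 19, 0 and 0 reads. The 3 livers with 15 or more Rbfox1 reads were WT 4, WT 5 and Rbfox2 KO 1, which are those with the highest skeletal muscle sums. The part of the muscle genes in the Rbfox1 level was not tested. Mean Rbfox1 levels were 0.256 CPM for WT and 0.199 CPM for Rbfox2 KO livers, and the log2 fold change of -0.35 ± 1.15 (SE) had an interval of -2.93 to 2.24. The interval allows changes of Rbfox1 in either direction.

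Rbfox3 (ENSMUSG00000025576, chromosome 11, 118489762 to 118911597, minus strand) was low but present in every liver. It had 24, 28, 22, 16 and 28 reads in WT 1 to 5 and 26, 21 and 28 reads in Rbfox2 KO 1 to 3, and the groups overlapped. Rbfox3 had a log2 fold change of 0.03 ± 0.25 (SE), an interval of -0.52 to 0.58 and, over all tested genes, an adjusted p of 0.99997 in edgeR. Of 6 neuron markers, Elavl4 had 0 counts in every sample and 3 in all were under the floor everywhere. The neuron sum, 3.20 to 4.47 CPM in WT and 2.51 to 2.79 CPM in Rbfox2 KO, was carried by Syt1. No rise of Rbfox1 or Rbfox3 passed the test where Rbfox2 was deleted, and for Rbfox3 the interval allows at most 1.49 times the WT level.

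**Figure D1:**
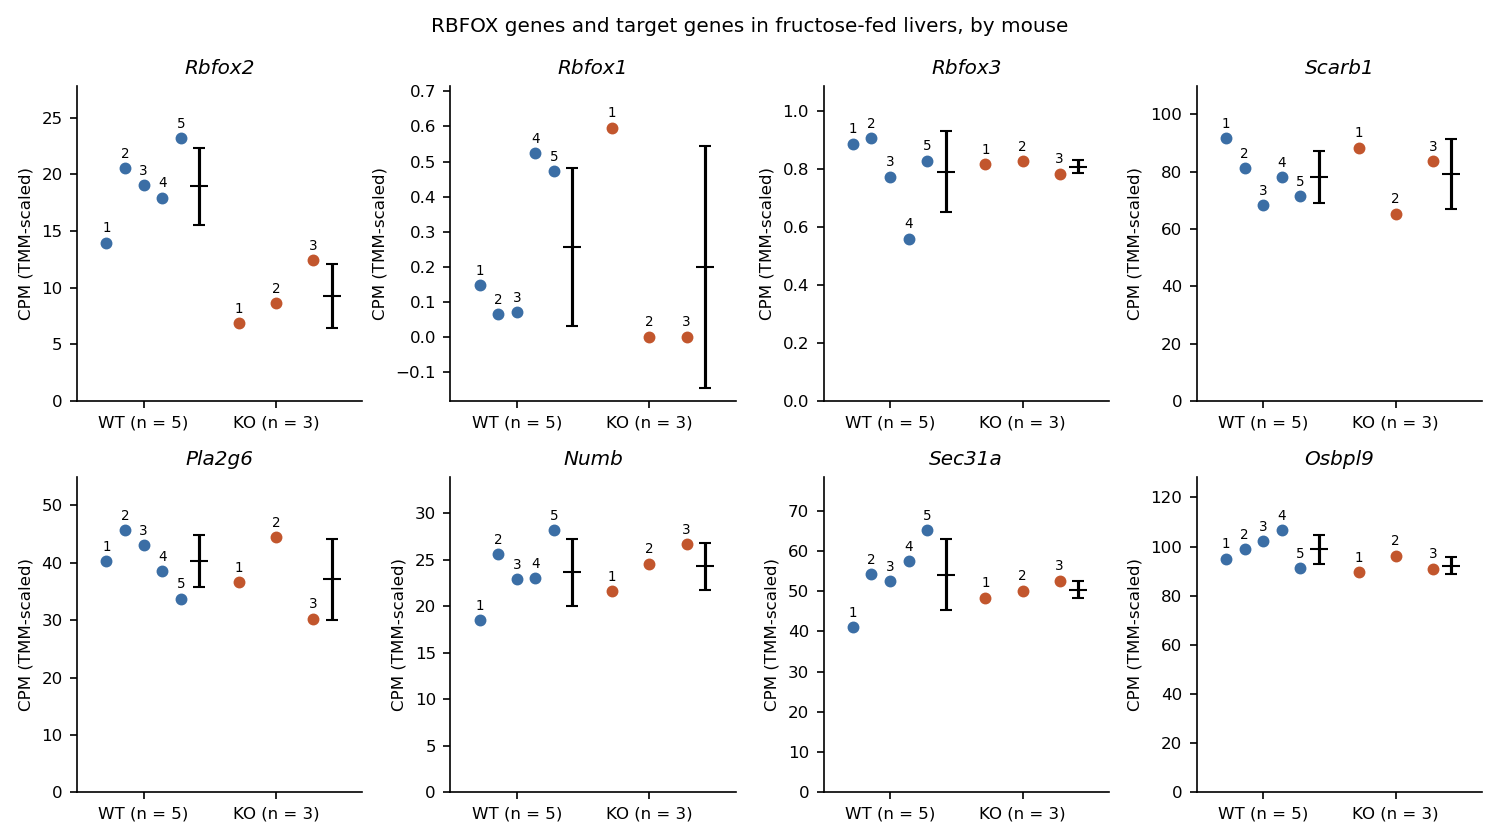
Level of each of the 8 genes in CPM (TMM-scaled) for 5 WT and 3 Rbfox2 KO livers, with the sample number above each point and the mean ± SD beside each group. The groups separate for Rbfox2, from 6.84 to 12.4 CPM against 13.96 to 23.2 CPM, and overlap for the other 7 genes, and the scale of Rbfox1 runs below 0 only to show its SD.

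The 5 target genes were expressed in every liver, and none of their totals passed the test between the groups. Scarb1 (ENSMUSG00000037936) had 91.6, 81.3, 68.4, 78.2 and 71.5 CPM in WT 1 to 5 and 88.4, 65.4 and 83.6 CPM in Rbfox2 KO 1 to 3. The receptor gene thus had its highest value in a WT liver and its lowest in a Rbfox2 KO liver. WT livers averaged 78.2 ± 9.09 CPM (SD, n = 5) and Rbfox2 KO livers 79.1 ± 12.1 CPM (SD, n = 3). Scarb1 differed by a log2 fold change of 0.02 ± 0.13 (SE), the interval running from -0.27 to 0.31.

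Pla2g6 (ENSMUSG00000042632), the phospholipase gene, had 40.3, 45.7, 43.1, 38.5 and 33.8 CPM in WT 1 to 5 and 36.6, 44.5 and 30.3 CPM in Rbfox2 KO 1 to 3. Its lowest value was in Rbfox2 KO 3 and its highest in WT 2, and 2 of 3 Rbfox2 KO livers were below the WT mean. WT livers averaged 40.3 ± 4.56 CPM (SD, n = 5) and Rbfox2 KO livers 37.1 ± 7.12 CPM (SD, n = 3). Pla2g6 differed by a log2 fold change of -0.12 ± 0.14 (SE), the interval running from -0.43 to 0.19.

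Numb (ENSMUSG00000021224), the endocytic adaptor gene, had 18.5, 25.6, 22.9, 22.998 and 28.2 CPM in WT 1 to 5 and 21.6, 24.5 and 26.7 CPM in Rbfox2 KO 1 to 3. All 3 Rbfox2 KO livers lay within the WT range. The means were 23.6 ± 3.60 CPM for WT (SD, n = 5) and 24.3 ± 2.55 CPM for Rbfox2 KO (SD, n = 3). The Numb log2 fold change was 0.04 ± 0.14 (SE), the interval running from -0.26 to 0.34. A share of 4.24% of Numb exon bases overlaps the opposite-strand gene Gm46367, and whether reads were counted by strand is not given in the sources used here.

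Sec31a (ENSMUSG00000035325), the COPII coat gene, had 41.1, 54.2, 52.6, 57.5 and 65.2 CPM in WT 1 to 5 and 48.4, 50.1 and 52.6 CPM in Rbfox2 KO 1 to 3. The Rbfox2 KO livers again lay inside the WT range, with a coefficient of variation of 4.22% against 16.2% in WT. The means were 54.1 ± 8.77 CPM for WT (SD, n = 5) and 50.4 ± 2.13 CPM for Rbfox2 KO (SD, n = 3). The Sec31a log2 fold change was -0.10 ± 0.13 (SE), the interval running from -0.40 to 0.19.

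Osbpl9 (ENSMUSG00000028559), the lipid transfer protein gene, had 95.1, 99.0, 102, 107 and 91.3 CPM in WT 1 to 5 and 89.5, 96.3 and 91.0 CPM in Rbfox2 KO 1 to 3. All 3 Rbfox2 KO livers were below the WT mean of 98.9 ± 6.04 CPM (SD, n = 5), but only Rbfox2 KO 1 and Rbfox2 KO 3 were below the lowest WT liver. The Rbfox2 KO mean was 92.3 ± 3.58 CPM (SD, n = 3). The Osbpl9 log2 fold change was -0.10 ± 0.09 (SE), the interval running from -0.30 to 0.10, the narrowest among the 8 genes. Here 9.04% of exon bases overlap Nrd1 on the opposite strand.

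None of the 5 target genes had an unadjusted edgeR p under 0.05, and none had non-overlapping groups, against 3.71% of all tested genes that did not overlap in either direction. Their median log2 fold change was -0.10, beside 0.00 over all tested genes, with 3 of 5 below 0 (49.8% of all tested genes). Read as ratios to WT, the lower ends of the 5 intervals were 0.829 for Scarb1, 0.745 for Pla2g6, 0.833 for Numb, 0.758 for Sec31a and 0.814 for Osbpl9. The upper ends were 1.24, 1.14, 1.26, 1.14 and 1.07 in the same order. Without Rbfox2 KO 1 the log2 fold changes were -0.075 for Scarb1, -0.12 for Pla2g6, 0.11 for Numb, -0.08 for Sec31a and -0.08 for Osbpl9.

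**Figure D2:**
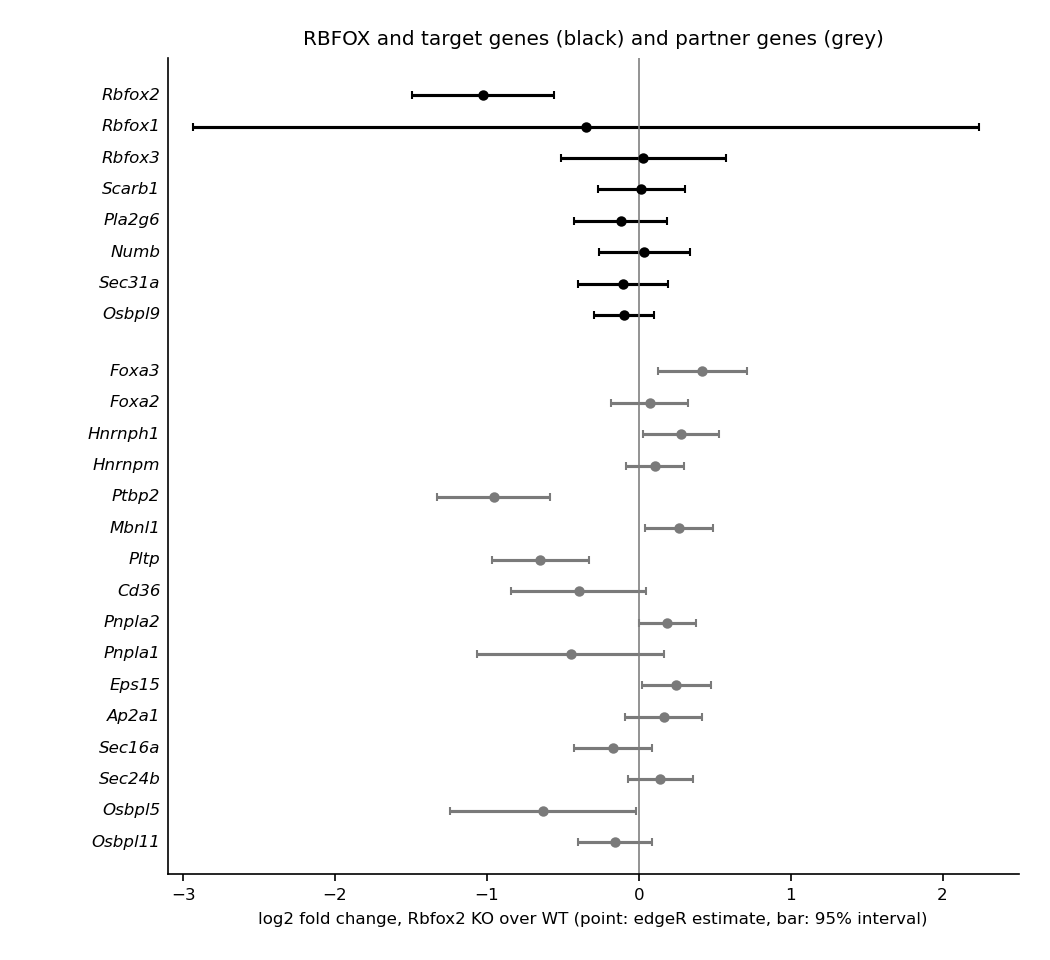
Log2 fold change of Rbfox2 KO over WT with the 95% interval of edgeR for the 8 genes (black) and for 16 partner genes (grey), the pair with the smallest unadjusted p of each of 8 lists. The Rbfox2 interval ends at -0.56, those of the other 7 black genes include 0, and Ptbp2 has the lowest grey estimate at -0.96.

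Levels of different genes were compared as CPM per kilobase of annotated exons. In WT livers the order of the mean levels per length was Osbpl9 at 14.1, Scarb1 at 9.20, Pla2g6 at 7.41, Sec31a at 6.86, Numb at 6.03, Rbfox2 at 2.32, Rbfox3 at 0.136 and Rbfox1 at 0.0582 CPM per kb. Osbpl9 was above Scarb1, Numb above Rbfox2 and Rbfox2 above Rbfox3 without overlap of the WT ranges. Neighbours whose ranges overlapped were Scarb1 and Pla2g6, Pla2g6 and Sec31a, Sec31a and Numb, and Rbfox3 and Rbfox1. The order of the means in Rbfox2 KO livers was the same, with Rbfox2 at 1.14 CPM per kb, still above Rbfox3 at 0.139 CPM per kb. With the longest annotated transcript as the length, the WT levels per length were 31.6 for Osbpl9, 25.3 for Scarb1, 12.8 for Sec31a, 11.97 for Pla2g6, 6.66 for Numb, 2.74 for Rbfox2, 0.251 for Rbfox3 and 0.0836 CPM per kb for Rbfox1, so that Sec31a and Pla2g6 exchanged places.

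**Figure D3:**
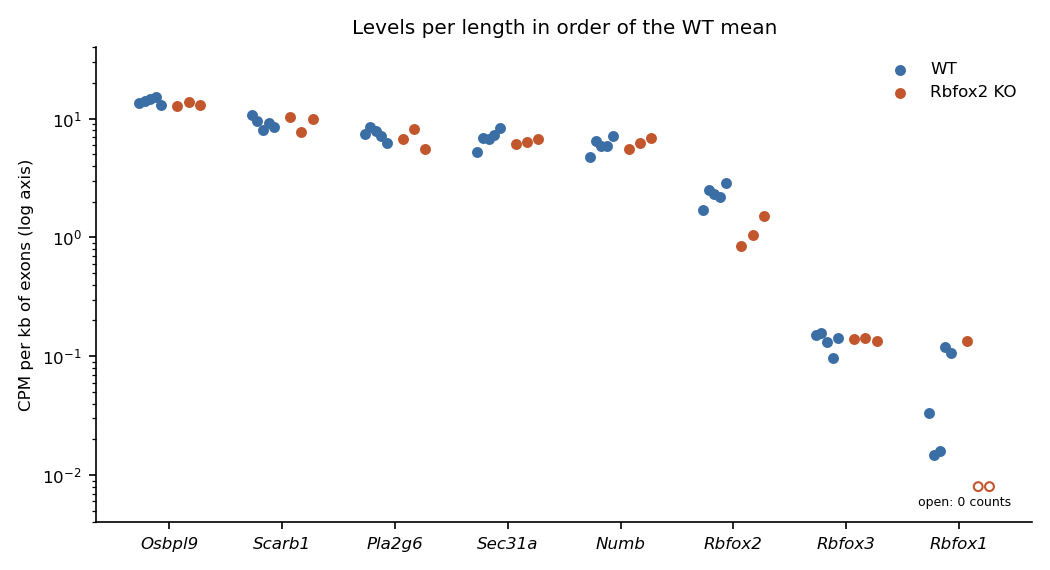
Level per length in CPM per kb of annotated exons, on a log axis, for each WT and Rbfox2 KO liver and the 8 genes in order of the WT mean. The 5 target genes lie between 6.03 and 14.1 CPM per kb on average in WT, Rbfox2 at 2.32, and the 2 livers without a Rbfox1 read are drawn as open circles at the foot of the plot.

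Within their families the targets held different places in WT livers. Osbpl9, at 14.1 ± 0.862 CPM per kb (SD, n = 5), had a higher mean level per length than each of the other oxysterol-binding protein genes listed, of which Osbpl1a was next at 8.81 ± 0.603. Sec31a, at 6.86 ± 1.11, was far above its paralog Sec31b at 0.687 ± 0.221, and Numb, at 6.03 ± 0.919, was far above Numbl at 0.0509 ± 0.0158. Pla2g6, also counted as a patatin-like phospholipase, stood at 7.41 ± 0.838, below the triglyceride lipase gene Pnpla2 at 20.1 ± 1.06 and Pnpla7 at 13.5 ± 2.17, and near Pnpla8 at 6.65 ± 0.572. Scarb1, at 9.20 ± 1.07, was below the related class B scavenger receptor genes Scarb2 at 24.2 ± 2.32 and Cd36 at 50.4 ± 6.63 CPM per kb. Ratios between genes depend on which annotated exons are counted as length.

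The variation among mice was shared by some of the 8 genes. Rbfox2, Numb and Sec31a each had their lowest WT level in WT 1 and their highest in WT 5. Of the Rbfox2 KO livers, Rbfox2 KO 1 was lowest and Rbfox2 KO 3 highest for all 3 genes in TMM-scaled CPM. For Numb the levels were 78.3% of the WT mean in WT 1 and 119% in WT 5, and for Sec31a 75.9% and 121%. In TMM-scaled CPM, 15.5% of all tested genes had this WT extreme pair. The shared ranking of the Rbfox2 KO livers was found for 22.9%, and 8.01% had both. The endothelial sums given above had the same extremes. The coefficients of variation over WT livers were 17.9% for Rbfox2, 11.6% for Scarb1, 11.3% for Pla2g6, 15.2% for Numb, 16.2% for Sec31a and 6.10% for Osbpl9, where the median of all tested genes was 15.4%.

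**Figure D4:**
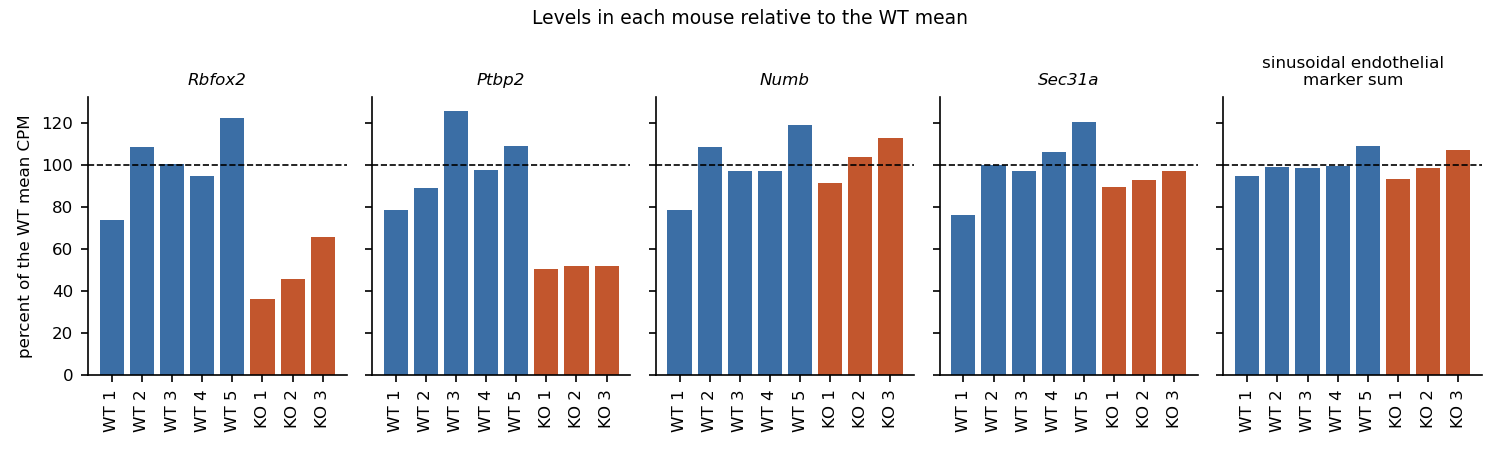
Level in each liver as a percent of the WT mean, for Rbfox2, Ptbp2, Numb, Sec31a and the summed sinusoidal endothelial markers, with a dashed line at 100%. Rbfox2 spans 36.1% to 65.5% in Rbfox2 KO livers, Ptbp2 stays between 50.6% and 52.0%, and Numb, Sec31a and the endothelial sum overlap between the groups.

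The genes around the RBFOX proteins and their targets were read from 8 lists with 90 genes, of which 84 were tested. None passed an adjusted edgeR p of 0.05. An unadjusted p under 0.05 was found for 7 of the 84 (8.33%), against 4.74% of all tested genes. Of the 7, 3 were lower and 4 higher in Rbfox2 KO, where 2.33% and 2.41% of all tested genes were. The groups did not overlap for 5 of the 84 (5.95%), against 3.71% of all tested genes. Of the 5, 2 were lower and 3 higher, where 1.82% and 1.89% of all tested genes were. The log2 fold change was below 0 for 41 of the 84.

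Other genes with RBFOX-dependent exons gave the lowest value of all the lists. Ptbp2, the neuronal polypyrimidine tract-binding protein whose own transcript carries exons regulated by splicing factors and nonsense-mediated decay, had 5.10, 5.79, 8.19, 6.36 and 7.10 CPM in WT 1 to 5. In Rbfox2 KO 1 to 3 it had 3.29, 3.38 and 3.38 CPM, and the groups did not overlap. Ptbp2 differed by a log2 fold change of -0.96 ± 0.17 (SE), the interval running from -1.33 to -0.58 and an adjusted p of 0.254 in edgeR, and DESeq2 called it with an adjusted p of 4.15e-04. Of the 9 genes of this list, 2 were below 0 and 7 above, with a median of 0.05. Mbnl1, a muscleblind splicing factor, had a log2 fold change of 0.27 ± 0.10 (SE) with overlapping groups and an adjusted edgeR p of 0.954.

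The large assembly of splicing regulators (LASR), the complex in which RBFOX proteins are found, was represented by 8 genes. Their median log2 fold change was 0.06, with 6 above 0. Hnrnph1, an RNA-binding subunit, averaged 63.1 ± 4.61 CPM in WT livers (SD, n = 5) and 76.5 ± 11.1 CPM in Rbfox2 KO livers (SD, n = 3), with a log2 fold change of 0.28 ± 0.11 (SE), overlapping groups and an adjusted edgeR p of 0.990. Hnrnpm, at 0.11 ± 0.09 (SE), shares 14.7% of its exon bases with a gene on the same strand. The highest level per length in the list was that of the RNA helicase gene Ddx5, at 46.0 CPM per kb in WT.

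The FOXA factors are pioneer transcription factors of hepatocytes, of which the study examined FOXA1 and FOXA2 upstream of Rbfox2. All 3 genes had log2 fold changes above 0, and none passed the test. Foxa1 was at 0.14 ± 0.26 (SE) and Foxa2 at 0.07 ± 0.11 (SE), both with overlapping groups. Foxa3 had 39.1, 32.2, 48.0, 39.3 and 37.3 CPM in WT 1 to 5 and 60.4, 48.8 and 47.8 CPM in Rbfox2 KO 1 to 3, with overlap only between WT 3 and Rbfox2 KO 3. Foxa3 differed by a log2 fold change of 0.42 ± 0.13 (SE), for which edgeR gave an adjusted p of 0.882.

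The HDL list beside Scarb1 held 14 genes of HDL handling, sterol export and related class B receptors. Their median log2 fold change was -0.03, with 9 below 0. Pltp, which encodes phospholipid transfer protein, a plasma protein that remodels HDL, had 109, 99.5, 77.8, 89.2 and 83.5 CPM in WT 1 to 5 and 69.8, 50.2 and 55.5 CPM in Rbfox2 KO 1 to 3. No Rbfox2 KO liver reached the lowest WT liver. Its log2 fold change was -0.65 ± 0.14 (SE), at an adjusted p of 0.373 in edgeR and 0.0102 in DESeq2, and 19.3% of its exon bases overlap Ctsa on the opposite strand. Cd36 was at -0.40 ± 0.20 (SE) with overlapping groups, and Apoa2, a structural HDL apolipoprotein gene, had the highest level per length of the list.

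The lists around the other 4 targets held no DESeq2 call. Among patatin-like phospholipases beside Pla2g6, 6 of 7 were tested, with a median of 0.11. Pnpla2 averaged 60.8 ± 3.19 CPM in WT livers (SD, n = 5) and 69.3 ± 3.91 CPM in Rbfox2 KO livers (SD, n = 3), and its lowest Rbfox2 KO value exceeded its highest WT value. Its log2 fold change was 0.19 ± 0.09 (SE), at an adjusted p of 0.99997 in edgeR. Pnpla1 was at -0.45 ± 0.28 (SE). Among 16 tested genes of endocytic NUMB partners and Notch signalling, the median was -0.01, and Eps15, an endocytic adaptor gene, was higher in every Rbfox2 KO liver than in any WT liver, at 28.2 ± 1.44 CPM (SD, n = 3) against 23.8 ± 2.44 CPM (SD, n = 5). Its log2 fold change was 0.25 ± 0.10 (SE), at an adjusted p of 0.99997 in edgeR. Ap2a1, an AP-2 clathrin adaptor subunit gene, was at 0.16 ± 0.11 (SE).

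The 18 COPII coat and cargo genes beside Sec31a had a median log2 fold change of -0.02 and a range of -0.17 to 0.16, with 10 below 0 and 0 with an unadjusted edgeR p under 0.05. Sec16a, which organises the sites where COPII coats form, was at -0.17 ± 0.12 (SE), and the cargo adaptor gene Sec24b was at 0.14 ± 0.10 (SE). Of 13 genes of the oxysterol-binding protein family and its VAP anchors in the endoplasmic reticulum, 10 were tested, with a median of -0.04. Osbpl5 averaged 1.88 ± 0.523 CPM in WT livers (SD, n = 5) and 1.21 ± 0.295 CPM in Rbfox2 KO livers (SD, n = 3), with a log2 fold change of -0.63 ± 0.28 (SE), overlapping groups and an adjusted p of 0.99997 in edgeR. Osbpl11 was at -0.16 ± 0.11 (SE). The 6 genes left untested for low counts were Pnpla5, Lnx1, Npc1l1, Osbp2, Osbpl6 and Osbpl10. The highest levels per length were those of Sar1b among the COPII genes, at 111 CPM per kb, Ap2m1 among the NUMB partners, at 32.5, Fn1 among other genes with RBFOX-dependent exons, at 36.1, and Vapa among the oxysterol-binding protein list, at 14.6.

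The genes whose profile over the 8 livers was most like that of Rbfox2 were found by the root mean square difference of log2 CPM, each profile centred on its own mean. Nsdhl was nearest at 0.213, followed by Gm15535 at 0.232, C330013E15Rik at 0.233, Mvd at 0.233 and Hmgcs1 at 0.237. The median over all other tested genes was 0.628, and a profile with no variation at all would stand at 0.582. Among the other 7 genes described here, Sec31a was nearest, at 0.505. Nsdhl, Mvd and Hmgcs1 encode enzymes of cholesterol synthesis. They averaged 12.7, 4.08 and 139 CPM in WT livers and 6.66, 1.44 and 75.0 CPM in those of Rbfox2 KO mice, with log2 fold changes of -0.93 ± 0.20 (SE), -1.50 ± 0.23 (SE) and -0.89 ± 0.16 (SE). The adjusted p of Nsdhl, Mvd and Hmgcs1 was 0.328, 0.138 and 0.254 in edgeR and 0.00545, 1.25e-05 and 5.35e-05 in DESeq2. The measure takes in the difference between the groups, so genes near Rbfox2 had to be lower in Rbfox2 KO livers.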

How the data were processed

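Poly(A)-selected liver RNA of 5 WT and 3 Rbfox2 KO mice was sequenced by the authors as paired-end reads, aligned to GRCm38 with TopHat2 2.0.11 as strand-specific libraries and counted per gene with featureCounts. Strand and multimapping settings of the counting are not given in the sources used here. The deposited values are raw counts per Ensembl gene, and 45229 of 46078 genes had a symbol in GENCODE M21. Genes passing filterByExpr were scaled by TMM and compared by genotype alone with edgeR 4.0.16 in R 4.3.3 (quasi-likelihood F test, robust option). P-values were adjusted by Benjamini-Hochberg over all 14654 genes, at a threshold of 0.05. A log2 CPM used a prior count of 2. Intervals of fold changes are 95% and not adjusted. The SE is the fold change divided by the square root of F. Floors of 3 counts cover counting error only. Alternatives were DESeq2 1.42.0, limma-voom (limma 3.58.1), other scalings, no filter, a replicate block and leaving out each sample. The procedure was tested on simulated data with 3 against 5 libraries. There edgeR called 55 of 100 genes with a true log2 change of 1 in size and 88 of 98 with a change of 2. It made 9 false calls, so a change of the size seen for Rbfox2 can be missed. An adjusted p depends on how many genes change, and in the livers edgeR made 0 calls, with a smallest adjusted p of 0.0862. The simulated shares are therefore not detection rates for Rbfox2.

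The members and lists were chosen with earlier results of these data known. Named genes were the 8 members, the 2 list genes with the smallest unadjusted p per list, the highest gene per length of each list and the 5 genes most like Rbfox2. Foxa1, the list genes given beside a target for its level per length, and the order of the samples shared by Rbfox2, Numb and Sec31a, were chosen after their values were seen. Groups are those of the labels, which do not say whether samples of a group came from separate litters or cages. The authors named DESeq2 or edgeR-voom-limma as their tools. The alternative exon of 1 target gene is not reported here.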

Additional observations from a re-analysis of the deposited data

Results flagged for a closer look

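Among the 5 WT livers, 38 values (the 8 genes, the 21 other named genes and 9 marker sums) were checked for 1 sample far from the rest by Dixon's criterion, and 3 passed it, where chance alone gives about 1.9. Osbpl11, an oxysterol-binding protein family gene, was at 14.4 CPM in WT 5 and between 11.7 and 12.2 CPM in the other 4 WT livers. Gm15535, one of the genes most like Rbfox2 over the 8 livers, was at 0.776 CPM in WT 1 and between 1.23 and 1.36 CPM in the others. The summed pancreatic acinar genes were at 8.64 CPM in WT 1 and between 0.0703 and 0.266 CPM in the others. None of the 8 genes met the criterion. The 3 Rbfox2 KO livers were too few for it.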

How the results depend on the processing

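Of 404 log2 fold changes of named genes under alternatives, 380 kept their sign and side of the threshold, 7 passed it and 17 changed sign. With Rbfox2, the 14 alternatives gave log2 fold changes of -1.30 to -0.85 and adjusted p of 0.0019 (DESeq2) to 0.772 (without Rbfox2 KO 1). DESeq2 called 59 genes and 1 of the 8 genes (Rbfox2, -1.03), with 1 call among other genes with RBFOX-dependent exons (Ptbp2) and 1 in the HDL list (Pltp), and it also called Nsdhl, Mvd and Hmgcs1. Without the filter edgeR called 6 genes, among them Mvd (adjusted p = 0.0411), and 1036 had an unadjusted p under 0.05. With total counts in place of TMM the median of all tested genes was at 0.12, that of the LASR list at 0.19, HDL at 0.066, COPII at 0.098 and the oxysterol-binding protein list at 0.060, while Pla2g6 (0.0042) and Osbpl9 (0.016) turned sign but stayed below the median of all genes. Leaving out each sample in turn gave 0 calls over all genes and 0 over the 8 genes in each case. The ranges were -1.30 to -0.85 for Rbfox2, -5.98 to 0.26 for Rbfox1, which has 0 reads in both livers left without Rbfox2 KO 1 and is then no bound, -0.070 to 0.083 for Rbfox3, -0.075 to 0.14 for Scarb1, -0.27 to 0.0088 for Pla2g6, -0.045 to 0.11 for Numb and -0.016 to 0.13 for Foxa2. List medians ranged from -0.016 to 0.30 for FOXA factors and from -0.082 to -0.0040 for the HDL list.

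Samples with equal numbers in both groups correlated over genes at 0.163, 0.0484 and 0.170. Their mean was 0.127, against -0.0313 for samples of different numbers. However, each of these WT samples correlated best with a Rbfox2 KO sample of another number, and the labels state no pairing. The numbers were therefore not taken as pairing in the main fit, and these values do not settle it. A fit with the replicate block gave -0.96 for Rbfox2 with 0 calls, and turned the sign of Rbfox1 (0.45), Rbfox3 (-0.077), Scarb1 (-0.025) and Sec31a (0.042). The cause of these sign changes was not tested. Rbfox1 rests on 0 to 19 reads per liver and Rbfox3 on 16 to 28, the lowest depths among the 8 genes. Levels per length moved with the longest transcript to 0.251 (Rbfox3), 25.3 (Scarb1), 11.97 (Pla2g6), 12.8 (Sec31a) and 31.6 CPM per kb (Osbpl9).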
